A study of Mus musculus with 4 samples.

Results

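The cells described here are migratory dendritic cells (DCs) that carried the BFP+ hashtag, compared between ears treated with MC903 and untreated ears. A barcode was kept when it held at least 500 genes, at most 10% mitochondrial UMIs (unique molecular identifiers, 1 per captured transcript), at least 1 UMI of Fscn1 or Ccr7, and none of Cd3e, Cd3d, Cd3g, Cd79a or Cd79b. It counted as BFP+ when its capture's 2 hashtags together had at least 10 counts and the BFP+ hashtag held at least 80% of them. This left 385 untreated and 1280 MC903 cells, 1665 of the 15836 barcodes. Levels of those 7 genes are therefore set in part by the selection.

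All cells came from ear-draining lymph nodes of Tnfsf4KI/+ mice, in which 1 allele of Tnfsf4 reports as BFP, a blue fluorescent protein. Ears were left without treatment, or were given MC903, also called calcipotriol, on days 0, 2 and 4, with nodes collected on day 5. MC903 is a vitamin D analogue under which skin overproduces the cytokine TSLP. Migratory DCs negative for B220, intermediate for CD11c and high for MHC class II were sorted, and 5000 BFP+ and 7000 BFP- cells of each treatment were tagged and loaded as 1 pool. The number of mice per pool was not found in the labels, and each treatment was 1 droplet capture, 1 gene expression library and 1 sequencing lane, so treatment and capture cannot be told apart. There is no replicate check, and no difference was tested. All intervals are exact 95% intervals that cover counting error only.

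TSLP is a cytokine of barrier epithelium. Its receptor pairs the products of Crlf2 and Il7r and signals through STAT5, whose targets include the feedback inhibitor Cish. DCs that meet TSLP in skin travel to the draining node, where OX40L, the product of Tnfsf4, costimulates T cells during type 2 responses. The reporter allele marks cells in which the Tnfsf4 locus is active.

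Each population was identified by the barcode of its hashtag antibody, an oligonucleotide of 15 bases. They are shown 5′ to 3′ because the whole assignment rests on them: Hashtag1 marked untreated BFP+ cells, Hashtag2 untreated BFP-, Hashtag3 MC903 BFP+ and Hashtag4 MC903 BFP-.
Hashtag1: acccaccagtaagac
Hashtag2: ggtcgagagcattca
Hashtag3: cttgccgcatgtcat
Hashtag4: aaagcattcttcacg
The oligonucleotides of a pair differed at 11 to 13 positions.

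The captures differed in depth and in how cleanly cells were tagged. The untreated capture held 9520 barcodes with 33525154 UMIs, and the MC903 capture 6316 barcodes with 57148072 UMIs. Of the DC barcodes left before the hashtag rule (5091 untreated and 4207 MC903), 24.3% of untreated and 2.28% of MC903 ones were mixed, with neither hashtag at 80%. In the untreated capture 63 barcodes had 75 to 80% of the BFP+ hashtag, just outside the rule, and 57 had 80 to 85%, just inside. In the MC903 capture those numbers were 8 and 10. At a share of at least 95%, 200 of the 385 untreated and 1174 of the 1280 MC903 BFP+ cells were left. Their medians were 9235.5 and 10123.5 UMIs, against 4685 and 10018 at 80%. The captures shared 23 barcode sequences, and 0 of them were selected as BFP+ in both.

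BFP+ cells summed to 2499564 UMIs in the untreated and 13690221 in the MC903 pool, with medians of 4685 and 10018 per cell. Untreated BFP+ cells fell into a shallow and a deep mode. Under 5000 UMIs lay 51.7% of untreated and 7.5% of MC903 cells. Above that limit, 186 untreated and 1184 MC903 cells had like medians of 9869.5 and 10367.5 UMIs. These deep cells, a subset set after seeing the data, supplied 79.1% of the untreated UMIs, and their ratios are given beside those of all cells where they matter.

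**Figure D1:**
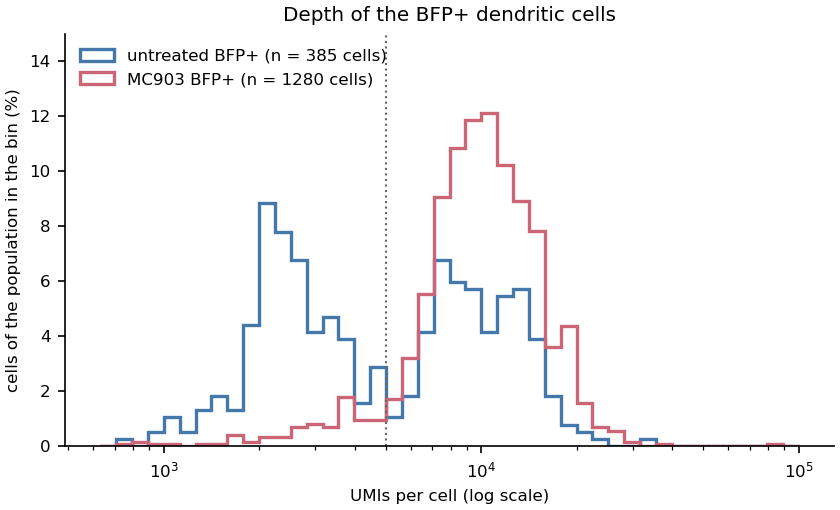
Distribution of UMIs per BFP+ cell (x axis, log scale) as the percent of each population's cells in a bin (y axis), for 385 untreated and 1280 MC903 cells. The dotted line marks 5000 UMIs, under which 51.7% of untreated and 7.5% of MC903 cells lie.

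UMIs were summed over the cells of a population and scaled to a common total in each (CPM). A gene was called higher or lower when the ratio was at least 1.5-fold and the higher population reached 20 CPM. Of 4952 genes at that level, 185 (3.74%) were higher and 221 (4.46%) lower after MC903. The direction of that split depends on the scaling: with TMM factors 274 were higher and 146 lower, and with median-of-ratios factors 280 and 143, so called genes that were higher made up 45.6%, 65.2% and 66.2%. The TMM scaling moved the median log2 ratio of all genes with at least 50 UMIs from -0.04 to 0.04. List medians below are to be read against -0.04, and counts of called members against 3.74% higher and 4.46% lower.

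**Figure D2:**
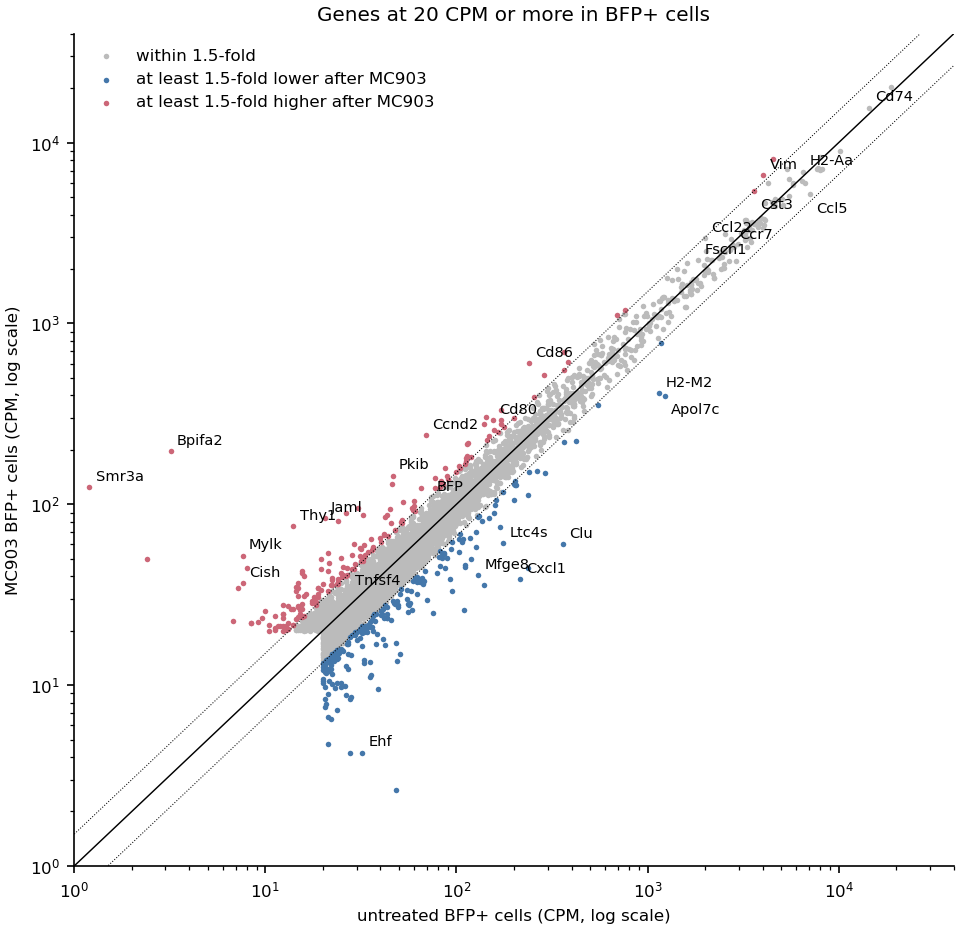
Level of each gene with at least 20 CPM in one population and at least 1 UMI in both, in untreated (x axis) and MC903 (y axis) BFP+ cells, in CPM on log scales. The solid line is equality and the dotted lines are 1.5-fold. Clu, Cxcl1, Apol7c and H2-M2 lie below the lines and Cish, Mylk and Cd86 above, while Ccr7, Fscn1 and Tnfsf4 lie between.

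The reporter's own gene differed little. Tnfsf4 (ENSMUSG00000026700, GRCm38 chromosome 1, 161395409 to 161418410, plus strand), which encodes OX40L, was at 27.2 CPM (21.1 to 34.5) in untreated and 33.2 CPM (30.2 to 36.4) in MC903 BFP+ cells. These intervals overlap, and the log2 ratio was 0.29 (-0.08 to 0.68). It was 0.17 (-0.23 to 0.58) in the deep cells. The BFP transcript was at 73.2 CPM in untreated and 109 CPM in MC903 cells, a log2 ratio of 0.58 (0.36 to 0.81), just under 1.5-fold, and of 0.37 (0.14 to 0.60) in the deep cells. A single untreated cell held 14.2% of its UMIs, and without the top cell of each population the ratio was 0.75 (0.51 to 0.99), past 1.5-fold. In BFP- cells Tnfsf4 was at 4.25 and 4.43 CPM and BFP at 6.94 and 10.3 CPM, far below the BFP+ populations of the same captures.

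To compare shares of cells, each cell was thinned to 2000 UMIs, which left out 43 untreated and 14 MC903 BFP+ cells. A Tnfsf4 UMI was then found in 4.39% (2.48 to 7.13) of untreated and 4.42% (3.36 to 5.71) of MC903 cells, against 9.61% and 16.4% without thinning. For BFP the thinned shares were 6.43% (4.07 to 9.58) and 12.8% (11.0 to 14.8), against 13.5% and 33.0% unthinned. T cell barcodes of the same captures (median depths 3824 and 4642.5 UMIs), taken as a cell type that should lack both, had a BFP UMI in 0.862% and 0.513% and a Tnfsf4 UMI in 0.862% (1 of 116) and in 0 of 195. Cluster 10, 1 of 18 clusters made without Tnfsf4 or BFP, held 47.1% of the Tnfsf4 UMIs of untreated and 54.6% of those of MC903 BFP+ cells, from 36 and 235 cells. Within it Tnfsf4 was at 76.0 and 94.0 CPM, and BFP at 273 and 251 CPM.

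The TSLP receptor itself was at like levels. Crlf2, its specific chain, was at 24.8 and 23.8 CPM, a log2 ratio of -0.06 (-0.45 to 0.36), and Il7r, the chain shared with the IL-7 receptor, was at 177 and 202 CPM, a ratio of 0.19. Of 18 measured TSLP and related cytokine receptor genes, 0 were higher and 2 lower, against 3.74% and 4.46% of all measured genes, with a median log2 ratio of -0.14 over the 22 with at least 50 UMIs. The lower ones were Csf2rb2, a beta chain of the IL-3 receptor, at 117 against 65.2 CPM (-0.85, -1.04 to -0.65), and Il13ra1, a receptor chain for IL-13, at 62.4 against 37.0 CPM (-0.76, -1.02 to -0.49).

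Cish (ENSMUSG00000032578, GRCm38 chromosome 9, 107296026 to 107302784, plus strand), the SH2-containing feedback inhibitor that STAT5 induces, had the largest ratio of the STAT5 list. It was at 7.60 CPM (4.58 to 11.9) in untreated and 36.5 CPM (33.4 to 39.9) in MC903 BFP+ cells, a log2 ratio of 2.26 (1.61 to 3.01). These intervals lie apart, and in deep cells the ratio was 2.39 (1.63 to 3.27). The UMIs came from 14 untreated and 260 MC903 cells. At 2000 UMIs per cell, 0.292% (1 of 342) of untreated and 5.92% (75 of 1266) of MC903 BFP+ cells had a Cish UMI, against 3.64% and 20.3% without thinning. At the same depth B cell barcodes had a Cish UMI in 1.99% and 0.621%, and T cell barcodes, which express Cish, in 6.90% and 6.67%.

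The rest of the STAT5 list moved less. Of 15 measured members 2 were higher (Cish and Pim3) and 1 lower (Bcl6), with a median of -0.01, beside the same all-gene shares of 3.74% and 4.46%. Pim3, a kinase induced by cytokine signals, was at 24.0 and 37.2 CPM (0.63, 0.24 to 1.04), and at 0.24 in cells thinned to 2000 UMIs. Socs3, another feedback inhibitor, stayed within 1.5-fold at 28.0 and 40.0 CPM (0.51, 0.15 to 0.89). Bcl6, a repressor that STAT5 can silence, was at 28.0 and 14.6 CPM (-0.94, -1.34 to -0.52), and at -0.05 in thinned cells, so neither call held there. Of other STAT genes, Stat4 was at 170 and 293 CPM (0.78, 0.64 to 0.93) and Stat2 at 14.0 and 26.3 CPM (0.91, 0.41 to 1.45), both called higher, while Stat3 and Stat6 were within 1.5-fold.

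The sequence before the start of these genes is shown because STAT dimers, STAT5 among them, bind a palindrome of the form TTCNNNGAA. The windows hold the 250 bases before a RefSeq start (GRCm38.p6), read 5′ to 3′ on the gene's strand, with each TTCNNNGAA in capitals. The pattern reads the same on both strands, and no match overlapped another. The RefSeq starts of Cish and Socs3 and the second start of Bcl6 lie inside the genes as GENCODE M21 coordinates give them. These 3 windows are therefore gene sequence there, while the first Bcl6 window lies just before the gene.
Cish, chr9:107296409-107296658, plus strand: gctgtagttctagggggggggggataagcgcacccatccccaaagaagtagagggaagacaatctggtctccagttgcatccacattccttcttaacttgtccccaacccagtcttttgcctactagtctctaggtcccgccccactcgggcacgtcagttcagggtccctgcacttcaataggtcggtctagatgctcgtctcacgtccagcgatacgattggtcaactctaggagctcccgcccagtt
Socs3, chr11:117969367-117969616, minus strand: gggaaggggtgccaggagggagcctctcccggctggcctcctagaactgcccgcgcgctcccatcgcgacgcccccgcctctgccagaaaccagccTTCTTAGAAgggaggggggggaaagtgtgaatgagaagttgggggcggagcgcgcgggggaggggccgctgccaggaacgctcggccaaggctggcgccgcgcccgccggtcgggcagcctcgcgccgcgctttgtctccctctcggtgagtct
Bcl6, first start, chr16:23988853-23989102, minus strand: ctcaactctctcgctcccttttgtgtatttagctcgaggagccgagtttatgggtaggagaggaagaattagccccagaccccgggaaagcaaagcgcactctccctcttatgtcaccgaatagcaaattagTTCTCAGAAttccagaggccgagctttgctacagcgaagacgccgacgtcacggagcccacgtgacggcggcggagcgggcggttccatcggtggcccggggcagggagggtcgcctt
Bcl6, second start, chr16:23981284-23981533, minus strand: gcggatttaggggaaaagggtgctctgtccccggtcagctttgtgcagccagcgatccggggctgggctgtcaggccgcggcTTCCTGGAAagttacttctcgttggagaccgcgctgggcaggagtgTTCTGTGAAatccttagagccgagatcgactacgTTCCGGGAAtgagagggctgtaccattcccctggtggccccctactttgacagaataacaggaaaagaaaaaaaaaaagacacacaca
Socs3 held 1 match and the Bcl6 windows 1 and 3, while the Cish window held 0. Of all 32851 promoter windows of this length, 7.02% held at least 1, and 0.317% held 2 or more. Of 14 STAT5 list genes with a window, 2 held a match (14.3%), as did 1 of 11 matched leading higher genes (9.09%, Pkib) and 0 of 10 leading lower ones. A gene counted here when any of its windows held a match. The 7.02% is a share of single windows, so the 2 kinds of share are unlike measures. A match is only a description of these letters.

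MC903 acts through the vitamin D receptor. Vdr, which encodes it, was at 6.80 CPM (3.96 to 10.9) in untreated and 22.6 CPM (20.1 to 25.2) in MC903 cells, a log2 ratio of 1.73 (1.03 to 2.53), from 17 and 309 UMIs. In deep cells the ratio was 2.03 (1.17 to 3.05). Of 7 measured vitamin D genes, Vdr was the only one higher, beside all-gene shares of 3.74% higher and 4.46% lower. Cyp27a1, a mitochondrial sterol hydroxylase, was the only one lower, at 22.0 and 12.9 CPM (-0.77, -1.21 to -0.30).

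Ligands of CD28 and of inhibitory T cell receptors stood among the higher genes. Of 9 measured B7 family and checkpoint ligands, 4 were higher and 1 lower, with a median log2 ratio of 0.41, against 3.74% and 4.46% of all measured genes. Cd86 (ENSMUSG00000022901, GRCm38 chromosome 16, 36603869 to 36666081, minus strand), a costimulatory ligand of CD28, was at 238 CPM (220 to 258) in untreated and 601 CPM (588 to 615) in MC903 cells, a log2 ratio of 1.33 (1.21 to 1.46). Cd80, the other CD28 ligand, was at 155 and 293 CPM (0.91, 0.76 to 1.07). For neither gene did the intervals of the levels overlap.

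Among the inhibitory ligands, Pdcd1lg2, which encodes PD-L2, was at 14.4 and 34.7 CPM (1.27, 0.78 to 1.80), and Cd200 at 115 and 218 CPM (0.92, 0.74 to 1.10). Cd274, which encodes PD-L1, was at 271 and 402 CPM (0.57, 0.45 to 0.68), just within 1.5-fold. The lower member was Pvr, a ligand of CD226 and TIGIT, at 81.2 and 51.4 CPM (-0.66). In deep cells the ratios were 1.29 for Cd86, 0.79 for Cd80, 0.93 for Cd200, 1.42 for Pdcd1lg2 and 0.50 for Cd274. At 2000 UMIs per cell a Cd86 UMI was found in 31.9% (27.0 to 37.1) of untreated and 56.6% (53.8 to 59.3) of MC903 cells, and in 1.72% and 3.08% of T cell barcodes. Cd80 was found in 20.5% and 40.4% of BFP+ cells, against 0.862% and 0.513% of T cell barcodes.

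The size of these ratios varied among BFP+ cells. In cells with a BFP or Tnfsf4 UMI (71 untreated and 473 MC903, median depths 9952 and 11736), Cd80 had a log2 ratio of 0.33 (0.12 to 0.54) and Cd86 of 1.09 (0.91 to 1.27). In cells with neither (314 and 807, median depths 3658 and 9301) the ratios were 1.26 (1.03 to 1.49) and 1.33 (1.17 to 1.5). For Cd80 the intervals of the split do not overlap. Nor do those of Ccnd2, Stat4, Apol7c and H2-M2, while those of Cd86 and Cish do. The chemokine gene Ccl17 was at 1.0 (0.75 to 1.26) in cells with a reporter UMI and at -0.39 (-0.50 to -0.28) without. A single untreated BFP+ cell held 30.1% of the untreated Ccl17 UMIs. In cluster 10, which held the most reporter UMIs, Cd80 was at 0.15 (-0.09 to 0.39) and Cd86 at 0.57 (0.36 to 0.79). The part of depth in this split was not tested.

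Other costimulatory ligands and receptors were mostly within 1.5-fold, as were most measured genes, of which 3.74% were higher and 4.46% lower. Of 5 measured TNF family ligands only Tnf, the inflammatory cytokine, was called, lower at 38.4 and 19.2 CPM (-1.0, -1.34 to -0.65). A single untreated cell held 25% of its UMIs, and without the top cell of each population the ratio was -0.73. Cd70, the CD27 ligand, was at 27.6 and 40.9 CPM (0.57, 0.20 to 0.95). Of 6 maturation receptors, Tnfrsf1b, a TNF receptor, was lower at 239 and 151 CPM (-0.66, -0.79 to -0.52), while Cd40 was at 322 and 272 CPM (-0.24).

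**Figure D3:**
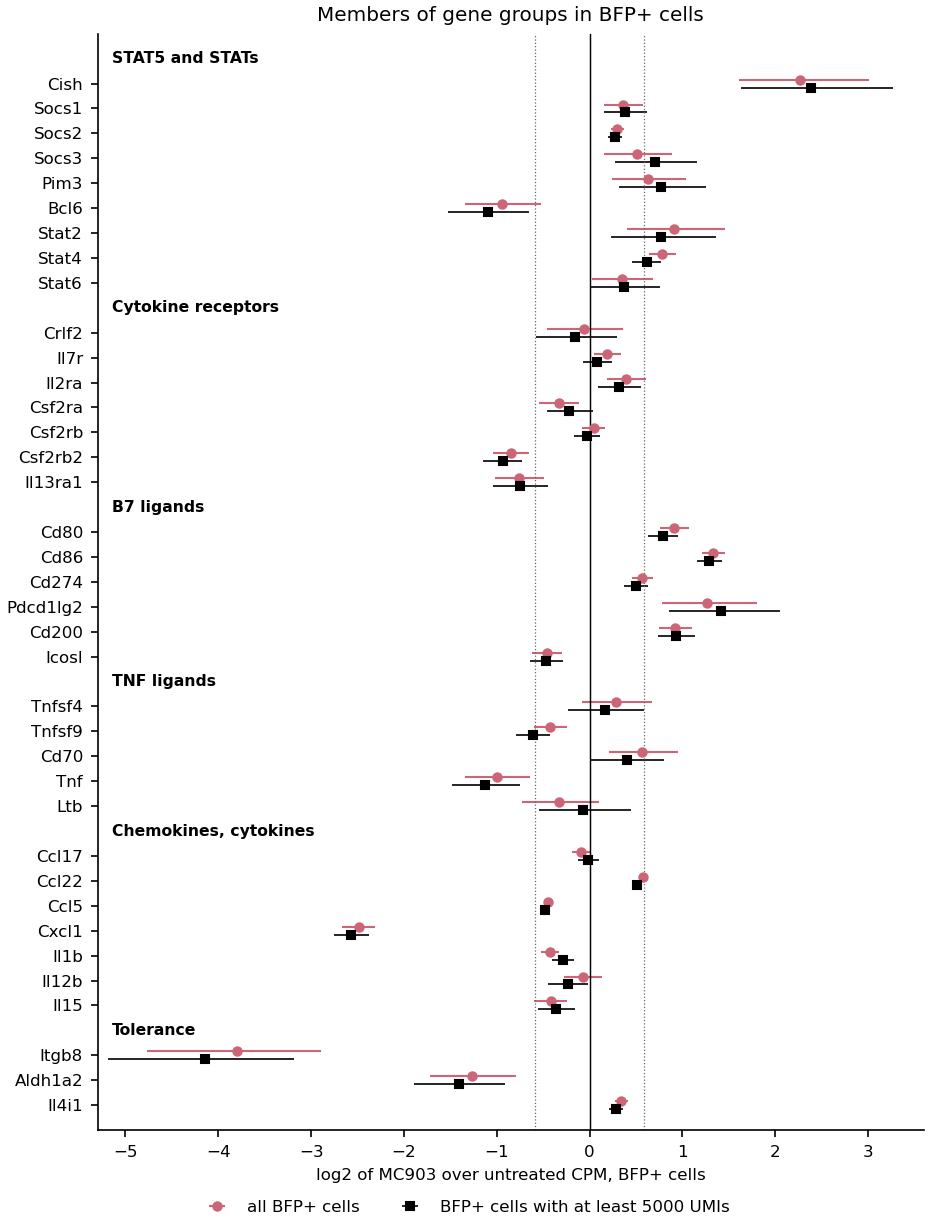
Log2 ratio of MC903 over untreated CPM in BFP+ cells (x axis) for members of fixed gene groups (y axis). Circles are all cells, squares are cells with at least 5000 UMIs, bars are exact 95% intervals for counting error and dotted lines mark 1.5-fold. Cish and the B7 ligands Cd86, Pdcd1lg2, Cd200 and Cd80 lie to the right and Cxcl1, Itgb8 and Aldh1a2 to the left with either set of cells.

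Ccl22, which attracts CCR4+ T cells and is abundant in migratory DCs, was at 1987 CPM in untreated and 2953 CPM in MC903 cells, a log2 ratio of 0.57 (0.53 to 0.61), just within 1.5-fold, and 0.63 (0.59 to 0.68) without the top cell of each population, which is past it. Ccl17, which binds the same receptor, was at 398 and 374 CPM (-0.09, -0.19 to 0.01), but 1 untreated cell held 30.1% of its UMIs, and without the top cell of each population the ratio was 0.33. Of 10 measured chemokines, 0 were higher and 5 lower, against 3.74% and 4.46% of all measured genes. Cxcl1, a neutrophil attractant, was lower at 215 and 38.4 CPM (-2.49, -2.66 to -2.31). Cxcl2, its relative, was at 70.0 and 29.7 CPM (-1.24). Ccl24, at 48.4 and 2.63 CPM, had untreated UMIs in 3 cells only, 66.9% of them in 1 cell. Ccl9 (-0.79) and Cx3cl1 (-0.73) were the others. Under the 20 CPM limit, Ccl6 was at 2.00 CPM (5 UMIs) in untreated and 15 CPM (205 UMIs from 46 cells, 23.9% of them in 1) in MC903 cells, a log2 ratio of 2.90 (1.66 to 4.54). Ccl3, with 3 and 159 UMIs, and Ccl4, with 6 and 187, had 90.6% and 86.6% of their MC903 UMIs in 1 cell.

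Of 9 measured cytokines 0 were higher and 2 lower, against 3.74% and 4.46% of all measured genes. Csf1, a growth factor for macrophages, was at 22.0 and 6.50 CPM (-1.76, -2.26 to -1.25), and Il18 at 20.8 and 13.7 CPM (-0.60). Among 7 measured tolerance genes, Aldh1a2, which makes retinoic acid, was lower at 23.2 and 9.64 CPM (-1.27, -1.72 to -0.80). Itgb8, an integrin chain that activates latent TGF-beta, lay under the 20 CPM limit at 15.2 CPM (38 UMIs) and 1.10 CPM (15 UMIs), a log2 ratio of -3.79 (-4.76 to -2.90).

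Antigen presentation genes kept similar levels for the most part, beside all-gene shares of 3.74% higher and 4.46% lower. Of 11 measured MHC class II genes 1 was called, H2-DMb2, a peptide editor, higher at 200 and 302 CPM (0.59, 0.46 to 0.73). H2-Aa was at 6504 and 6915 CPM and Cd74, the invariant chain, at 14453 and 15634 CPM. Of 22 class I genes Cd1d1, which presents lipids to NKT cells, was the only one called, higher at 52.4 and 103 CPM (0.98, 0.72 to 1.25). That list does not hold the nonclassical gene H2-M2, which was lower and is given below. Cst3, a cysteine protease inhibitor, was higher at 3604 and 5422 CPM (0.59, 0.56 to 0.62), and the lysosomal genes Ctsd (-0.84), Scarb2 (-0.68) and Npc2 (-0.59) were lower. For Ctsd 1 untreated cell held 26.6% of the UMIs, and the ratio without the top cells was -0.46.

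Mylk, a myosin light chain kinase, was at 7.60 and 52.0 CPM (2.77, 2.12 to 3.52). Jaml, a junctional adhesion receptor, was at 20.4 and 84.0 CPM (2.04, 1.64 to 2.48). Ccnd2, cyclin D2, was at 69.2 and 241 CPM (1.80, 1.58 to 2.03), with 28.3% of the untreated UMIs in 1 cell and a ratio of 2.24 without the top cells. Ccnd2 was the only one called of 9 cell cycle genes, beside all-gene shares of 3.74% higher and 4.46% lower. Mki67, a mark of dividing cells, was at 16.4 and 8.11 CPM.

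Pkib, an inhibitor of protein kinase A, was at 46.4 and 144 CPM (1.64, 1.36 to 1.92). Pla1a, a phospholipase specific for phosphatidylserine, was at 30.4 and 95.5 CPM (1.65, 1.32 to 2.01). Stxbp6, a syntaxin-binding protein, was at 46.0 and 130 CPM (1.5, 1.22 to 1.78). Hopx, a homeodomain protein, had a ratio of 1.76 and Tesc, a calcium-binding protein, of 1.43. These 5 genes kept ratios of 1.42 or more in the deep cells.

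Thy1 (ENSMUSG00000032011, GRCm38 chromosome 9, 44043384 to 44048579, plus strand), a surface glycoprotein best known from T cells, was at 14.0 CPM in untreated and 75.7 CPM in MC903 BFP+ cells, a log2 ratio of 2.44 (1.95 to 2.97). Its untreated UMIs came from 9 cells, 42.9% of them from 1, and its MC903 UMIs from 215 cells, with at most 2.99% from any cell. Without the top cell of each population the ratio was 3.18 (2.55 to 3.90). At 2000 UMIs per cell, 0.877% of untreated and 7.5% of MC903 BFP+ cells had a Thy1 UMI, against 45.7% and 44.1% of T cell barcodes. Of 4 measured T cell markers Thy1 was the only one higher, beside all-gene shares of 3.74% higher and 4.46% lower. The summed T cell list, Thy1 included, was at 258 and 311 CPM, with the Cd3 genes at 0 by selection. Trbc2 was lower, at 21.2 and 4.75 CPM, and Cd4 was at 6.0 and 1.39 CPM.

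Clu (ENSMUSG00000022037, GRCm38 chromosome 14, 65968483 to 65981547, plus strand), which encodes the chaperone clusterin, was at 360 CPM (337 to 384) in untreated and 60.1 CPM (56.1 to 64.4) in MC903 cells, a log2 ratio of -2.58 (-2.72 to -2.44), the intervals lying far apart. A Clu UMI was found in 31.9% (27.0 to 37.1) of untreated and 8.77% (7.27 to 10.5) of MC903 cells at 2000 UMIs, and in 5.17% and 0.513% of T cell barcodes. Apol7c (GRCm38 chromosome 15, 77524852 to 77533316), an apolipoprotein L of DCs, was at 1234 and 399 CPM (-1.63, -1.69 to -1.56), and its relative Apol10b at 28.0 and 8.55 CPM (-1.71). H2-M2 (GRCm38 chromosome 17, 37480851 to 37483552), a nonclassical MHC class I gene, was at 1146 and 411 CPM (-1.48, -1.54 to -1.41).

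Ltc4s, which makes leukotriene C4, was at 176 and 60.8 CPM (-1.53, -1.70 to -1.36). Of the other lipid mediator genes Ptgs2, cyclooxygenase-2, was lower at 59.2 and 37.8 CPM (-0.65). Mfge8, a bridging protein for apoptotic cells, was at 130 and 40.6 CPM (-1.68, -1.88 to -1.48). Ehf, an epithelial ETS factor, was at 32.0 and 4.24 CPM (-2.92, -3.43 to -2.41). Fxyd2, a regulator of the sodium pump, was at 139 and 35.9 CPM (-1.95), Calm4, a calmodulin-like gene of epidermis, at 109 and 26.0 CPM (-2.07), and Gclc, of glutathione synthesis, at 48.0 and 17.2 CPM (-1.48). M1ap (-1.84), Evi2a (-1.59) and Rasgef1b (-1.65) completed the list with Notch2, below. In deep cells the 15 leading lower genes, Cxcl1 and Notch2 included, had ratios between -2.86 and -1.14.

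**Figure D4:**
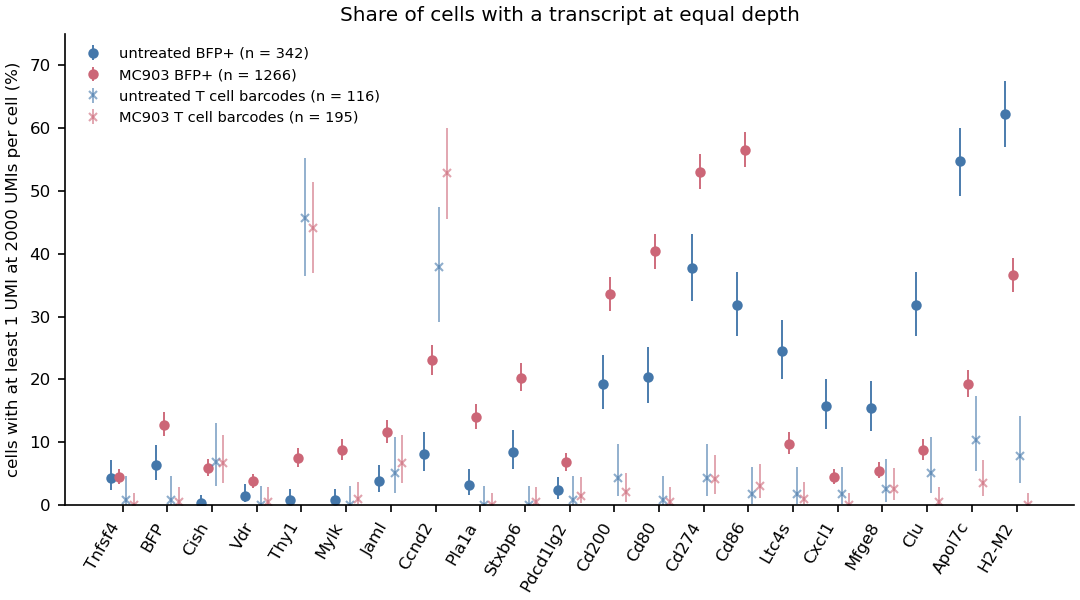
Percent of cells with at least 1 UMI of each gene after thinning every cell to 2000 UMIs (y axis), for BFP+ cells (circles) and T cell barcodes (crosses) of the untreated (blue) and MC903 (red) captures, with exact 95% Clopper-Pearson intervals. Cd86, Cd80 and Cd200 were found in more MC903 than untreated BFP+ cells and Clu, Apol7c and H2-M2 in fewer, while Tnfsf4 was found in 4.39% and 4.42%.

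Of 6 measured genes of the Notch list 1 was higher and 3 lower, against 3.74% and 4.46% of all measured genes. The ligand Dll4 was higher at 21.6 and 47.3 CPM (1.13, 0.73 to 1.56), with 33.3% of the untreated UMIs in 1 of 13 cells and a ratio of 0.06 at matched depth. The receptor Notch2 was lower at 35.2 and 11.0 CPM (-1.67, -2.06 to -1.28), as were the ligand Jag1 (-0.66) and the sheddase Adam10, at 47.2 and 28.3 CPM (-0.74). In deep cells Notch2 had a smaller ratio, -1.14 (-1.63 to -0.64).

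Of 27 cytoskeletal genes 3 were higher and 1 lower, against 3.74% and 4.46% of all measured genes, with a median log2 ratio of 0.31. Vim, vimentin, was at 4027 and 6635 CPM (0.72, 0.69 to 0.75), Coro1a, an actin regulator of leukocytes, at 286 and 516 CPM (0.85, 0.74 to 0.96), and Tubb2b, a beta tubulin, at 142 and 302 CPM (1.09, 0.93 to 1.25). Of 9 migration receptors 2 were lower, Cxcr4, the CXCL12 receptor, at 78.8 and 41.6 CPM (-0.92, -1.16 to -0.68) and Plxnc1 at 367 and 220 CPM (-0.74). Ccr7, the receptor that guides DCs to nodes, was at 2799 and 2701 CPM (-0.05), and the actin bundler Fscn1 at 1840 and 2245 CPM (0.29). Both were used to select cells.

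Of 13 interferon-stimulated genes 3 were higher and 0 lower, against 3.74% and 4.46% of all measured genes. The higher ones were Isg15, a ubiquitin-like modifier, at 26.4 and 90.0 CPM (1.77, 1.41 to 2.15), Ifi35 at 42.4 and 85.3 CPM (1.01) and Zbp1 at 15.6 and 23.7 CPM (0.60). Among 25 DC transcription factors 1 was called, Cebpb, lower at 24.8 and 10.3 CPM (-1.27, -1.71 to -0.81). Of 26 immediate early genes 1 was called, Jun, higher at 364 and 699 CPM (0.94, 0.84 to 1.04). In the glycolysis list Gapdh (0.64) and Ldha (0.66) were higher among 13 measured genes. Of 15 lipid synthesis genes Abcg1, a sterol exporter, was lower at 262 and 153 CPM (-0.78). Apoe was also called lower (-0.69), but 52.5% of its untreated UMIs came from 1 cell, and without the top cells the ratio was 0.25.

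In 3 lists 0 members were called in either direction: the 20 NF-kappaB genes (median -0.02), the 26 oxidative phosphorylation genes (-0.03) and the 12 unfolded protein response genes (-0.10). Of all measured genes 3.74% were higher and 4.46% lower, shares at which few calls would fall in lists of this size. The largest NF-kappaB ratios were those of the inhibitors Nfkbid (-0.56) and Tnfaip3 (-0.50). Ribosomal protein genes took 22.7% of untreated and 21.5% of MC903 BFP+ UMIs, and mitochondrial genes 3.78% and 3.34%.

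Clusters allowed ratios among more similar cells. Clusters 2, 3 and 10, and no others, reached 30 BFP+ cells in each capture (53 and 218, 39 and 260, 36 and 235 cells), with cluster 2 alone above 50. Clusters 0, 1 and 6 held mostly shallow cells of the untreated capture. They held 17.4%, 21.0% and 8.05% of untreated BFP+ cells, against 0.625%, 1.875% and 0.0781% of MC903 BFP+ cells. Clusters 8 and 9 held 3.64% and 3.38% of untreated and 14.4% and 17.5% of MC903 BFP+ cells. The part of this unlike make-up in the ratios of all BFP+ cells was not tested. The leading genes are variable genes that helped to make the clusters, so these values are a description. Cd86 had log2 ratios of 1.52, 0.91 and 0.57 in clusters 2, 3 and 10, and Cd80 of 2.02, 1.01 and 0.15. Ccl22 had 0.50, 0.86 and 1.18, and Ccl17 1.07, 0.48 and 2.17. Clu was lower in each, at -3.49, -1.30 and -0.98, as was H2-M2, at -1.03, -0.77 and -1.27. Stxbp6 was higher in each, at 1.15, 1.30 and 1.25. In cluster 10 Thy1 had 14 untreated and 304 MC903 UMIs (1.79, 1.02 to 2.68), and Dll4 30 and 349 (0.89, 0.35 to 1.48). Isg15 was at -1.14, -1.05 and 1.0, from only 8, 6 and 4 untreated UMIs. Each of these intervals included 0, so no direction is read from them.

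BFP- cells of the same captures are given side by side, since both contrasts share the captures and so any difference between them. Of 5035 genes measured there, 232 (4.61%) were higher and 279 (5.54%) lower after MC903. Depth differed more than in BFP+ cells, with medians of 2631.5 UMIs in untreated and 9380 in MC903 BFP- cells. Cish was at 3.36 and 35.9 CPM in BFP- cells, a log2 ratio of 3.42, against 2.26 in BFP+. Cd86 had ratios of 1.88 and 1.33 in BFP- and BFP+ cells, Cd80 of 1.76 and 0.91, Cd274 of 1.16 and 0.57, Stat4 of 2.01 and 0.78, and Ccl22 of 0.98 and 0.57. For Cd80 and Stat4 the untreated BFP+ level was already high (155 and 170 CPM against 60.7 and 47.8 CPM in BFP-), and the MC903 levels were closer (293 and 293 CPM against 206 and 193 CPM).

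Some lower genes had larger ratios in BFP+ cells. Apol7c was at -1.63 in BFP+ and -0.81 in BFP- cells, Apol10b at -1.71 and -0.41, H2-M2 at -1.48 and -0.86, and Cxcl1 at -2.49 and -1.77. Ccl17 was at -0.09 in BFP+ and 1.06 in BFP- cells. The genes ranked as most different between the contrasts included several that rested on few cells. Retnla had a ratio of 4.37 in BFP+ cells with 98.5% of its MC903 UMIs in 1 cell, and -0.71 without the top cells. S100a8, S100a9, Ly6d, Cd209a and Ccl24 likewise had 66.9% or more of the UMIs of a population in 1 cell. Epcam, an epithelial and Langerhans cell adhesion molecule, had 27 and 25 UMIs. Chia1, Dnase1 and Cst10 had 0 UMIs in untreated BFP+ cells.

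**Figure D5:**
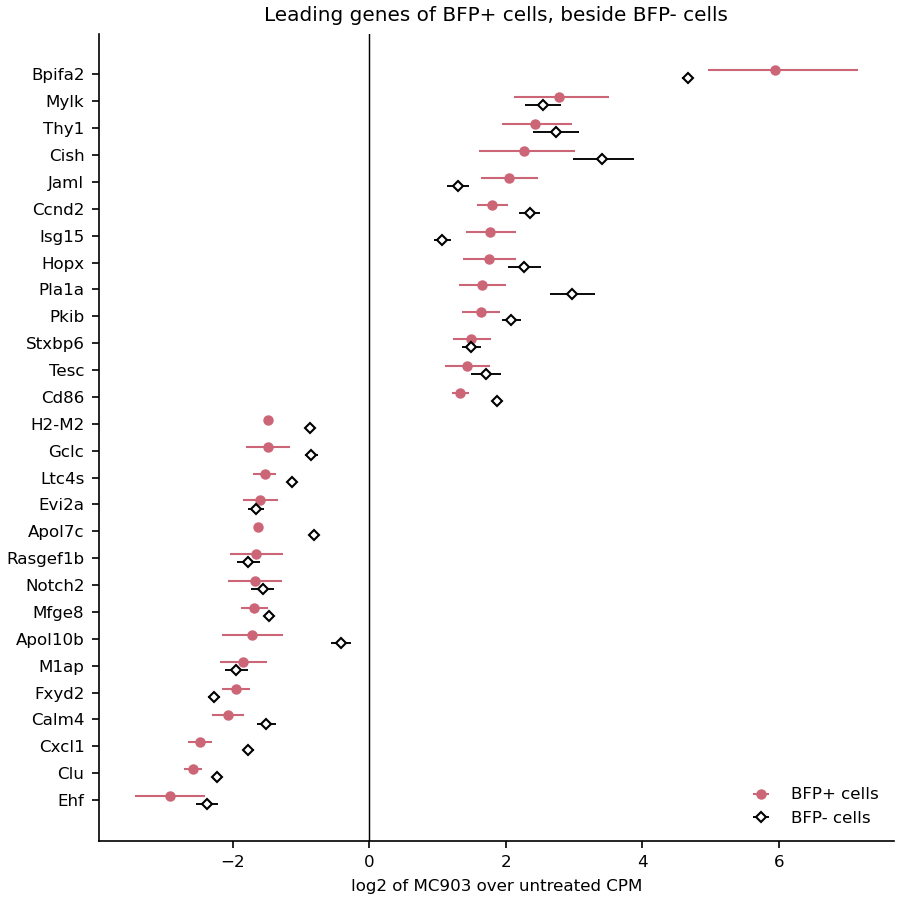
Log2 ratio of MC903 over untreated CPM (x axis) for the leading higher and lower genes of BFP+ cells with more than 3 UMIs in each pool (y axis), in BFP+ (filled circles) and BFP- cells (open diamonds), with exact 95% intervals for counting error. All listed genes have the same direction in both populations, and Cish and Pla1a lie farther from 0 in BFP- cells and H2-M2, Apol7c and Apol10b in BFP+ cells.

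Among the named higher genes, transcripts of exocrine glands had the largest ratios. Smr3a was at 1.20 CPM (3 UMIs) in untreated and 124 CPM in MC903 BFP+ cells, Bpifa2 at 3.20 and 197 CPM, and Amy1 had 0 UMIs against 43.7 CPM, at least 36.4-fold higher with 3 counts in place of 0. At 2000 UMIs per cell Smr3a was found in 11.5% of MC903 BFP+ cells, 10.3% of MC903 T cell barcodes and 9.94% of MC903 B cell barcodes, and Bpifa2 in 12.3%, 10.8% and 12.4%. Since cell types that should lack these genes had shares of like size, the shares are not read as expression by BFP+ cells, and their source was not tested.

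The label was checked against markers. All 10 migratory DC markers, among them Ccr7, Fscn1, Cd83, Ccl22 and Socs2, were above 50 CPM in both pools, and 0 of 10 were called. Of all measured genes 3.74% were higher and 4.46% lower, shares at which few calls would fall in 10 genes. Ccr7 and Fscn1 were used to select cells, so their presence is no check of the label. Of conventional DC markers 9 of 10 reached 20 CPM, and Itgax, which encodes CD11c, did not, at 13.2 and 5.19 CPM. Summed levels of other cell types were 45.2 and 34.6 CPM for the B cell list, with Cd79a and Cd79b at 0 by selection, 341 and 169 CPM for monocytes and macrophages (3 of 3 measured lower, Lyz2, C1qa and C1qb), and 168 and 53.3 CPM for Langerhans cells, of which Mfge8 made up most and Cd207 had 3.20 and 0.219 CPM. The neutrophil list was at 24.4 and 10.9 CPM with Ly6g and Mmp8 at 0. Sums for other lists were 68.8 and 52.2 CPM for NK cells and ILCs, 55.6 and 55.4 for plasma cells, 30.8 and 6.94 for stromal cells, 7.2 and 7.09 for keratinocytes, 7.2 and 2.70 for mast cells and basophils, and 4.40 and 2.92 for endothelial cells. The lists for cDC1 (550 and 657 CPM), cDC2 (257 and 276) and plasmacytoid DCs (414 and 482) rest on genes that other DCs share, and Clec4a4 and the cDC1 genes Xcr1, Clec9a and Tlr3 were at or near 0. Haemoglobin genes had 990 UMIs in untreated BFP+ cells, 99.8% of them in 1 barcode, and 13 after MC903. The part of the higher macrophage and Langerhans markers of the untreated pool in Mfge8 and the other lower genes was not tested.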

How the data were processed

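The authors deposited, for each capture, a matrix of UMI counts that covers genes and hashtags. Per the file headers it comes from Cell Ranger 3.1.0, on GRCm38 (mm10) per the submitters' processing notes. Gene positions come from GENCODE M21, and promoter windows from RefSeq. Symbols on more than 1 row (32) were summed.

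The members, the 29 gene lists and the 17 marker lists were chosen with earlier results of these data known. Cells were selected by the rule given in the report, UMIs were summed per population (CPM), and log2 ratios were given exact 95% intervals for 2 Poisson counts (Python 3.11.15, scipy 1.17.1). With 0 UMIs on 1 side, 3 counts over the population replaced 0. No test was run. List medians cover members with at least 50 UMIs, and "measured" members are those at 20 CPM or more in the higher population. Genes were named by a fixed rule: the 15 each way whose interval bound nearest to 0 lay farthest out, the 6 each way most different from BFP- cells, and of each list the 4 members with the largest absolute ratio, besides a fixed set. Other list members past the fold were named after their values were seen. Leading genes also had a UMI in at least 10% of the higher population's cells. They were also at least 1.5-fold apart in the same direction at matched depth, so that result was fixed by the rule. Clusters were made with scanpy 1.11.5 and leidenalg 0.10.2 from 1972 variable genes of 9298 cells of the 4 populations and the mixed barcodes. T and B cell barcodes had at least 3 UMIs of Cd3 or Cd79 genes and none of Fscn1. Scrublet called 0 doublets in either capture and so did not work. Doublets were limited by the hashtag and lymphocyte rules only. Alternatives used edgeR 4.0.16 and DESeq2 1.42.0 for scaling factors, other filters, matched or thinned cells, and clusters. In simulated Poisson sums of this comparison over 22595 genes, 100% of 200 genes set 2-fold apart were called, as were 0.369% of unchanged ones, and 95.7% of intervals held the true ratio. That checks the calculation, not the spread between pools.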

Additional observations from a re-analysis of the deposited data

Results flagged for a closer look

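Plac8 and Hilpda were past 1.5-fold one way in BFP+ cells and the other way in BFP- cells of the same captures, and the difference was not tested. Plac8 had log2 ratios of 0.69 (17.6 and 28.5 CPM) in BFP+ and -1.17 (94.5 and 41.9 CPM) in BFP- cells, with 1.6 in BFP+ cells matched on UMI count. A single MC903 BFP+ cell held 27.9% of its UMIs and 5 cells held 65.4%, and without the top cell of each BFP+ population the ratio was 0.51 (0.0075 to 1.05), under 1.5-fold. Hilpda, a lipid droplet protein, had 0.60 (16.0 and 24.3 CPM) in BFP+ and -0.63 (24.8 and 16.0 CPM) in BFP- cells, with 0.04 at matched depth and 0.80 (0.28 to 1.36) without the top cells. Fewer than 10% of BFP+ cells of either pool had a UMI of either gene.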

How the results depend on the processing

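No paired analysis was possible because each population is 1 pool and no test was made. Treatment, capture and lane cannot be told apart, and leaving out a replicate could not be done. The main counts were 185 higher and 221 lower genes. They were 146 lower with TMM scaling, 280 and 143 with median-of-ratios factors, 1042 and 1433 with at least 10 UMIs and no CPM minimum, 50 and 43 at 100 CPM, 406 and 418 in cells thinned to 2000 UMIs, and 480 and 550 within cluster 2. Inside clusters 2, 3 and 10, an alternative chosen after seeing the data, 79 were higher and 130 lower. In cells with at least 5000 UMIs, also chosen after seeing the data, the counts were 188 and 241, and 150 and 187 of the main calls were shared. Fewer were shared elsewhere: 107 and 130 at matched UMI count, and 117 and 147 in thinned cells. Inside the 3 clusters 34 and 72 were shared, and within cluster 2 50 and 99, so like counts can hold different genes. Under the 8 other alternatives that gave a value the counts stayed within 1.5 times. The part of fewer UMIs in the larger counts was not tested. Doublet removal could not give a value. Within cluster 2 the log2 ratio changed sign among called genes for Isg15 (-1.14), Pdcd1lg2 (-0.60), H2-DMb2 (-0.0085), Tubb2b (-0.13) and Ctsd (0.082). Among genes not called it did so for Tnfsf4 (-0.82, from 6 and 15 UMIs), Nfkbid (0.0098) and others. For each of these named genes the cluster 2 interval ran from a negative to a positive value. Inside the 3 clusters the ratio changed sign for Isg15 (-0.40). Ratios inside clusters were left out where a pool had 3 or fewer UMIs. Retnla was at -0.0041 at matched depth. The B cell list median (main 0.82) was -0.52 without the lymphocyte filter, -0.40 at matched depth, -0.014 thinned and -0.34 as the mean of each cell's CPM, and the monocyte and macrophage median (main -1.09) was 0.10 without the lymphocyte filter. Matching on UMI count still left medians of 4685 and 6633. Over all alternatives with a value, Cd86 ranged from 1.0 to 1.52, Clu from -3.49 to -1.93 and H2-M2 from -1.57 to -1.02. Tnfsf4 ranged from -0.82 to 0.38 and Cish from 1.73 to 4.57. The 4.57 of Cish came from thinned cells, where 1 of 342 untreated cells had a Cish UMI. Depth limits genes under 20 CPM most, since 1 untreated BFP+ UMI is 0.400 CPM.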

Other observations

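Some receptors under the 20 CPM limit had ratios whose intervals stayed away from 0. S1pr3, a sphingosine 1-phosphate receptor, was at 4.80 CPM (12 UMIs) in untreated and 17.2 CPM (236 UMIs) in MC903 BFP+ cells, a log2 ratio of 1.84 (1.01 to 2.82), and 2.26 in BFP- cells. Nrp1, a receptor for semaphorins and VEGF, was at 7.60 and 15.9 CPM (1.07, 0.39 to 1.83). Mgl2, a lectin of dermal DCs, was at 2.8 and 13.4 CPM (2.26, 1.19 to 3.6) in BFP+ cells, but at 23.8 and 15.6 CPM (-0.61) in BFP- cells. The difference was not tested. Il13, a type 2 cytokine, had 60 UMIs in MC903 BFP+ cells, 98.3% of them in 1 cell, and 0 in untreated ones.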
